A study of Mus musculus with 20 samples.

Results

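The promoters of the Hox clusters were taken from a table of sperm DNA methylation at 22480 mouse promoters. A member was every row whose symbol is Hoxa, Hoxb, Hoxc or Hoxd followed by a number, without antisense symbols, and 36 promoters of the 22480 met this rule. They comprised 11 genes of the Hoxa cluster on chromosome 6, 9 of the Hoxb cluster on chromosome 11, 9 of the Hoxc cluster on chromosome 15 and 7 of the Hoxd cluster on chromosome 2. The promoters of Hoxb13, Hoxd8 and Hoxd13 were not analysed here, and 3 antisense symbols (Hoxd3os1, Hoxaas3 and Hoxa11os) were left out.

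Hox genes encode homeodomain transcription factors that give cells their position along the head-to-tail axis and in the limbs and genital tract. Within a cluster the genes lie in a row, low paralog numbers are used early and towards the head, high numbers late and towards the tail, and genes of the same number in different clusters (paralogs) are close relatives. Their promoters are rich in CpG, are held silent by Polycomb proteins in most adult cells, and are known to lie in DNA with little methylation in sperm.

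Sperm was taken from the vas deferens and epididymis of 20 F1 males at 8 weeks of age, with 5 males in each of 4 groups. The strains were C57BL/6J and FVB/N. In the DEHP group of each strain the mother had received di-(2-ethylhexyl) phthalate orally in corn oil at 300 mg/kg/day, starting on gestation day 9 and ending on day 19, and in the control group she had received corn oil alone over the same days. Methylated fragments were captured with a methyl binding domain protein and sequenced (MBD-seq), so that the number of reads over a promoter depends on its methylation and on how many CpG sites it holds. The 10 DEHP samples and the 10 control samples were handed in separately for library preparation and sequencing, and either batch held mice of both strains. Treatment and batch therefore cannot be told apart in what follows.

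Every probe was 2200 bp long and ran from 2000 bp upstream to 200 bp downstream of a gene start. The values are the authors' mean and SD over the 5 libraries of a group, in normalized reads per probe with 1 decimal. Values of single libraries and their depth were not used here, so no difference below was tested. In place of a test, a mean ± 1.79 SD, widened by 0.05 on both numbers for rounding, gives the range that the 5 libraries of a group cannot leave. Groups whose ranges lie apart cannot overlap, and such groups are called separated. This criterion misses groups that are apart inside overlapping ranges, so its counts are lower limits. In bulk sperm DNA, a lower read number through less methylation in every sperm and through a smaller share of other cells cannot be told apart.

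Imprinted promoters were listed as a check that the DNA was that of sperm. A probe covers only 2000 bp upstream and 200 bp downstream of a gene start. Whether it holds the stretch of an imprinted locus that is methylated in sperm was not examined. High or low levels at these probes therefore cannot decide whether the DNA was that of sperm. H19, which is methylated on the paternal copy, had means of 17.5 to 25.3 normalized reads in the 4 groups, and Meg3 had 5.2 to 25.8, but Rasgrf1 had only 2.4 to 3.7. The 8 promoters methylated on the maternal copy had medians of 2.75 to 4.2, with Nnat apart from the others at 9.5 to 26.5. Of the sperm genes taken as free of methylation, Prm1 and Prm2 had 8.9 to 28.9 and Tnp1 had 5.0 to 7.0, so neither protamine promoter showed the low level assumed for this list. In C57BL/6J, Tnp1 was at 6.4 ± 2.7 in controls and 7.0 ± 1.3 after DEHP. Per the study's methods, sperm was inspected by phase contrast microscopy, and any preparation with somatic cells in it was not used. Several of these promoters moved with treatment, Meg3 from 25.8 ± 10.3 to 9.2 ± 2.7 and Nnat from 26.5 ± 8.6 to 9.5 ± 3.8 in C57BL/6J, with Prm2 separated in C57BL/6J and Prm1 in FVB/N, both lower after DEHP, and Snrpn separated and higher in C57BL/6J. What these shifts contribute to the Hox values was not tested. Summed over all promoters, the authors' means gave 226268 normalized reads in C57BL/6J controls against 141092 to 153283 in the other groups, and this surplus touches every comparison with C57BL/6J controls.

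Stretches of sequence from 4 members show what these probes are made of. Each line is the 300 bases just upstream of the gene start in GRCm38.p6 (mm10), read 5′ to 3′ on the strand of the gene, with every CpG site in capitals. Hoxd4 had the highest level of the 36 members and Hoxa4 the lowest of its paralogs. Hoxa9 was the highest of paralog number 9, whose members were all low, and Hoxa13 was chosen after its values were seen because it combined many CpG sites with a high level.
Hoxd4, chr2:74721678-74721977, plus strand: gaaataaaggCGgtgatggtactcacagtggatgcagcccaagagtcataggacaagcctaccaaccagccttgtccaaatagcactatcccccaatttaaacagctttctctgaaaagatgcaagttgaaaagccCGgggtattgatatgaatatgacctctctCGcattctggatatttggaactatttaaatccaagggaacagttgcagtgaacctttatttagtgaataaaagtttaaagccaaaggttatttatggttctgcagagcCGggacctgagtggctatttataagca
Hoxa4, chr6:52191704-52192003, minus strand: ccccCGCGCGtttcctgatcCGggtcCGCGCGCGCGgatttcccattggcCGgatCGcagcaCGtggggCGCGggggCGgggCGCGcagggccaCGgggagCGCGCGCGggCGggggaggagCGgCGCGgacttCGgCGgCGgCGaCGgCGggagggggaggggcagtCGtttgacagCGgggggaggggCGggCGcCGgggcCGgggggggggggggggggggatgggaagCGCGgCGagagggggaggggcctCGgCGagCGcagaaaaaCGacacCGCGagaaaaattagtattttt
Hoxa9, chr6:52227371-52227670, minus strand: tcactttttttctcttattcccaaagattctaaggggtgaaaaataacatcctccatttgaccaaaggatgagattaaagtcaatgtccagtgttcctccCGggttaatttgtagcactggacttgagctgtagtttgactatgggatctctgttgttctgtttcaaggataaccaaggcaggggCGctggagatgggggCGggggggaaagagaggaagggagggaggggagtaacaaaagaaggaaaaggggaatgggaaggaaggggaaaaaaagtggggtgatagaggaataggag
Hoxa13, chr6:52260881-52261180, minus strand: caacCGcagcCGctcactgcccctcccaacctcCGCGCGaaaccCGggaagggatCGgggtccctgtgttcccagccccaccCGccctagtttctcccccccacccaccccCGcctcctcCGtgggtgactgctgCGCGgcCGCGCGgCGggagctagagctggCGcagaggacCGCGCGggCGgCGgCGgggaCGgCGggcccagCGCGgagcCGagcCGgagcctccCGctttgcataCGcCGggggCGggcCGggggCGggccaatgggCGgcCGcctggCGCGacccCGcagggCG
These stretches held 4 CpG sites in Hoxd4 and 47 in its paralog Hoxa4, 3 in Hoxa9 and 41 in Hoxa13. Of the 36 probes, 32 started within 100 bp of an annotated start of their own gene, and 35 overlapped an exon of it. The exception was Hoxb3, whose nearest annotated start lay 200 bp downstream of the probe's. Annotated exons of any gene covered from 3.32% of a probe (Hoxb9) to 92.5% (Hoxa3), and the Hoxa3 probe also held exon sequence of Hoxa7. No Hox probe overlapped another one. The Hoxa13 probe overlapped that of Hottip, the Hoxd1 probe that of Haglr and the Hoxb4 probe that of Mir10a, so reads there cannot be assigned to one gene of the pair.

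Hox promoters held few normalized reads. In C57BL/6J controls the 36 authors' means ran from 0.2 to 19.8 with a median of 2.4, where the median of all promoters was 5. In C57BL/6J DEHP they ran from 0 to 10.7 with a median of 1.95, against 5.3 over all promoters. In FVB/N controls the median was 2.4 against 3, with a range of 0.2 to 10.5. In FVB/N DEHP it was 1.4 against 4.9, with a range of 0 to 12.8. Of the 36 members, 10 lay above the median of all promoters in control C57BL/6J and 4 after DEHP, and 12 did so in control FVB/N and 6 after DEHP. In the same order, a mean below 1 normalized read was found for 5, 8, 7 and 12 members. These are 13.9%, 22.2%, 19.4% and 33.3% of the members, where all promoters gave 8.8%, 4.66%, 14.8% and 8.04%.

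Hox probes were not poor in CpG sites. They held 20 to 118 CG sites with a median of 67, against a median of 45 over all promoters, and promoters with at least 20 sites (17843) had medians of 3.4 to 5.7 normalized reads. In each of 4 bands of CG number the Hox median was below that of all promoters of the band, in all 4 groups. In C57BL/6J controls it was 6.15 against 14.4 with 20 to 39 sites (8 members), 2.6 against 5.4 with 40 to 59 sites (9 members), 2.4 against 4.5 with 60 to 79 sites (7 members) and 1.75 against 3.5 with 80 to 118 sites (12 members). In FVB/N controls, where both sets were nearest to each other, the same bands gave 3.5 against 7.7, 2.7 against 3.2, 0.9 against 2.6 and 1.45 against 2.3. Developmental factors of the Sox, Fox, Pax, Lhx, Tbx, Gata and sine oculis homeobox families (89 promoters, a list added after the data were seen) had medians of 3.6, 2.7, 2.3 and 3.1 in the 4 groups, with a median of 76 CG sites.

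**Figure D1:**
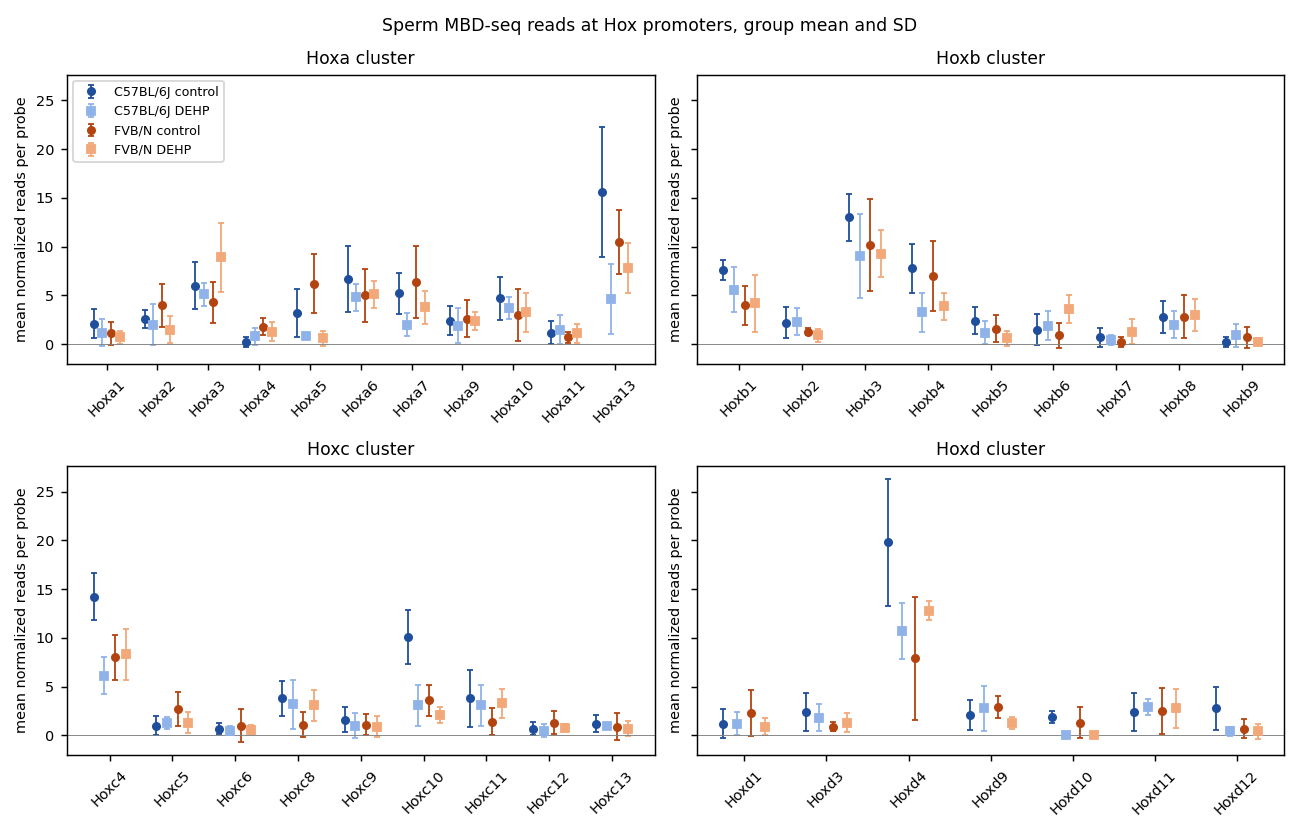
Authors' mean of normalized reads per 2.2 kb probe (points) and SD over 5 libraries (bars) for the 36 Hox promoters, in 4 panels by cluster and in order of paralog number, with the 4 groups in colour. Most members lie below 5 normalized reads, and Hoxd4 (19.8 in C57BL/6J controls), Hoxa13 (15.6), Hoxc4 (14.2) and Hoxb3 (13) stand above the rest.

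By the mean over the 4 groups, 6 members were below 1 normalized read and 8 were above 5, with a median of 2.3 against 4.65 for all promoters. The 8 were Hoxd4 (12.8), Hoxb3 (10.375), Hoxa13 (9.625), Hoxc4 (9.15), Hoxa3 (6.075), Hoxb4 (5.5), Hoxa6 (5.4) and Hoxb1 (5.35). The 6 were Hoxb9 (0.5), Hoxb7 (0.65), Hoxc6 (0.7), Hoxd10 (0.8), Hoxc12 (0.825) and Hoxc13 (0.95).

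In the Hoxd cluster, Hoxd4, a gene of the hindbrain and upper spinal column, stood far above the other members. Its authors' means were 19.8 ± 6.5 (SD, n = 5) in control and 10.7 ± 2.9 in DEHP-exposed C57BL/6J, and 7.9 ± 6.3 in control and 12.8 ± 1.0 in DEHP-exposed FVB/N. Series of 4 values below follow this same order. The other 6 members of the cluster had means of at most 2.9 in every group. In FVB/N DEHP the libraries of Hoxd4 cannot lie below 10.9, whereas those of FVB/N controls may lie anywhere from 0 to 19.3. Hoxd10, which takes part in patterning the hindlimb and its motor neurons, was the lowest of the cluster.

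In the Hoxb cluster, Hoxb3 was highest, with 13.0 ± 2.4, 9.0 ± 4.3, 10.2 ± 4.7 and 9.3 ± 2.4 normalized reads. All 4 ranges overlapped. Hoxb9, a gene of the thoracic region, was lowest with 0.2 ± 0.5, 0.9 ± 1.2, 0.7 ± 1.1 and 0.2 ± 0.4, and its libraries could exceed 3.19 in no group. The medians of the cluster were 2.4, 2, 1.6 and 3.

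In the Hoxc cluster, Hoxc4 was highest and Hoxc6 lowest. Hoxc6 had 0.7 ± 0.6, 0.5 ± 0.5, 1.0 ± 1.7 and 0.6 ± 0.5. Hoxc10, a gene of the lumbar region and hindlimb, was the only other member of the cluster above 5 in any group, with 10.1 ± 2.8 in C57BL/6J controls. This cluster had the lowest median in C57BL/6J controls, at 1.6, and 1.3 in each of the other groups.

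In the Hoxa cluster, Hoxa13, which acts at the very end of the axis in digits and genital tubercle, was highest with 15.6 ± 6.7, 4.6 ± 3.6, 10.5 ± 3.3 and 7.8 ± 2.6. The overlapping probe of Hottip, a long noncoding RNA gene next to Hoxa13, had almost the same values, at 16.8 ± 7.1, 5.3 ± 4.2, 11.1 ± 3.4 and 8.0 ± 2.9. Hoxa4 was lowest of its cluster with 0.2 ± 0.5, 0.8 ± 0.9, 1.8 ± 0.9 and 1.3 ± 1.0. The medians of the cluster were 3.2, 2, 4 and 2.4, the highest of the 4 clusters in both control groups.

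Genes of the same paralog number did not share a level. Number 4 spread most, from 1.025 (Hoxa4) over 5.5 (Hoxb4) and 9.15 (Hoxc4) to 12.8 (Hoxd4) as means over the 4 groups. In C57BL/6J controls the range of Hoxa4 ended at 1.23 and those of its 3 paralogs began at 3.19 or above, while Hoxb4, Hoxc4 and Hoxd4 overlapped their neighbours. Number 3 ran from 1.6 (Hoxd3) to 10.375 (Hoxb3), and number 13 from 0.95 (Hoxc13) to 9.625 (Hoxa13). The 4 members of number 9 were all low, from 0.5 to 2.325, and both of number 12 were at 0.825 and 1.075.

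The 4 paralogs of number 4 also differed in CG content. Hoxa4 held 114 CG sites in its probe, Hoxb4 held 49, Hoxd4 held 23 and Hoxc4 held 20, which was the fewest of all members. Hoxa5, a regulator of lung and rib cage development, held the most with 118 and had 3.2 ± 2.5, 0.8 ± 0.1, 6.2 ± 3.0 and 0.6 ± 0.8 normalized reads. Across the 36 members the rank correlation (Spearman) of CG number and level was -0.42 in control and -0.65 in DEHP-exposed C57BL/6J, and -0.27 in control and -0.51 in DEHP-exposed FVB/N. Without Hoxa13, a choice made after the data were seen, it was -0.53, -0.73, -0.38 and -0.6. Over all 22480 promoters it was -0.07, -0.25, -0.05 and -0.21, but these span 1 to 303 CG sites, a wider range than the members. Within the range of the members the level of all promoters also fell with CG number. In C57BL/6J controls their median was 14.4 with 20 to 39 sites and 3.5 with 80 to 118 sites. The fall is therefore not particular to Hox promoters. The points share their libraries, and a probe with more CG sites offers more sites to the capture at equal methylation.

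A window of 200 bp was called island-like when its GC content was at least 50% and its observed over expected CpG ratio at least 0.6. Such windows were absent from 3 Hox probes, those of Hoxd4, Hoxb3 and Hoxc4, which were among the 4 members with the highest levels. These 3 had medians of 14.2, 9, 8 and 9.3 normalized reads in the 4 groups, against 2.4, 1.9, 1.8 and 1.3 for the 33 others. Island-like windows covered 92.5% of the Hoxa5 probe, 80% of Hoxb7, 76.7% of Hoxc9, 65.4% of Hoxd10 and 64% of Hoxb9. Hoxa13 was the exception, with island-like windows over 44.2% of its probe, 98 CG sites and the third highest level. Over the 36 members the rank correlation of this share with the mean over the 4 groups was -0.65.

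**Figure D2:**
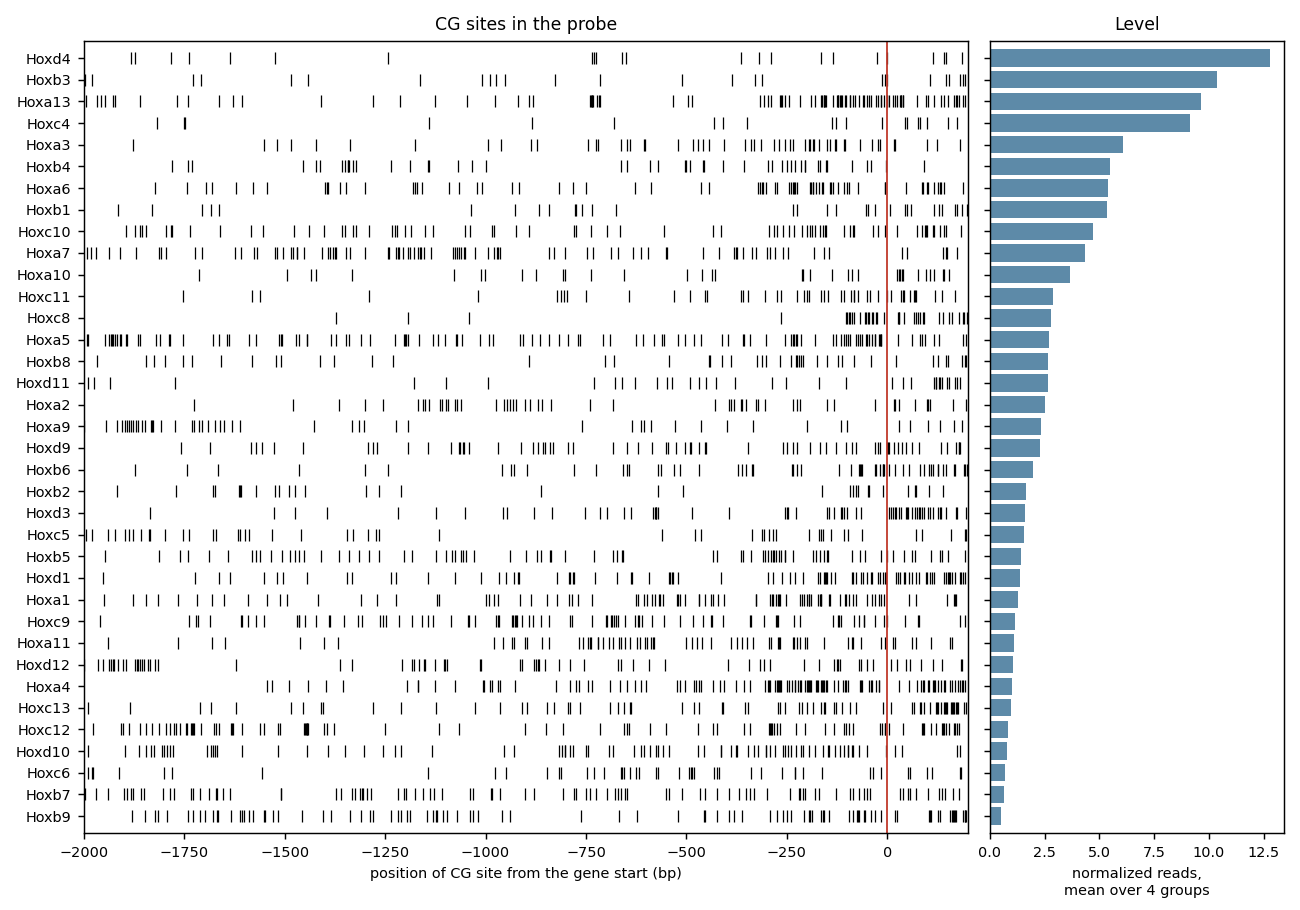
Left, position of each CG site (tick) from the gene start in bp (vertical line at 0) in the probes of the 36 members, ordered by level; right, mean of normalized reads over the 4 groups. The probes of Hoxd4, Hoxb3 and Hoxc4 near the top hold few ticks (23, 26 and 20), whereas that of Hoxa13 holds 98, crowded around its start.

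**Figure D3:**
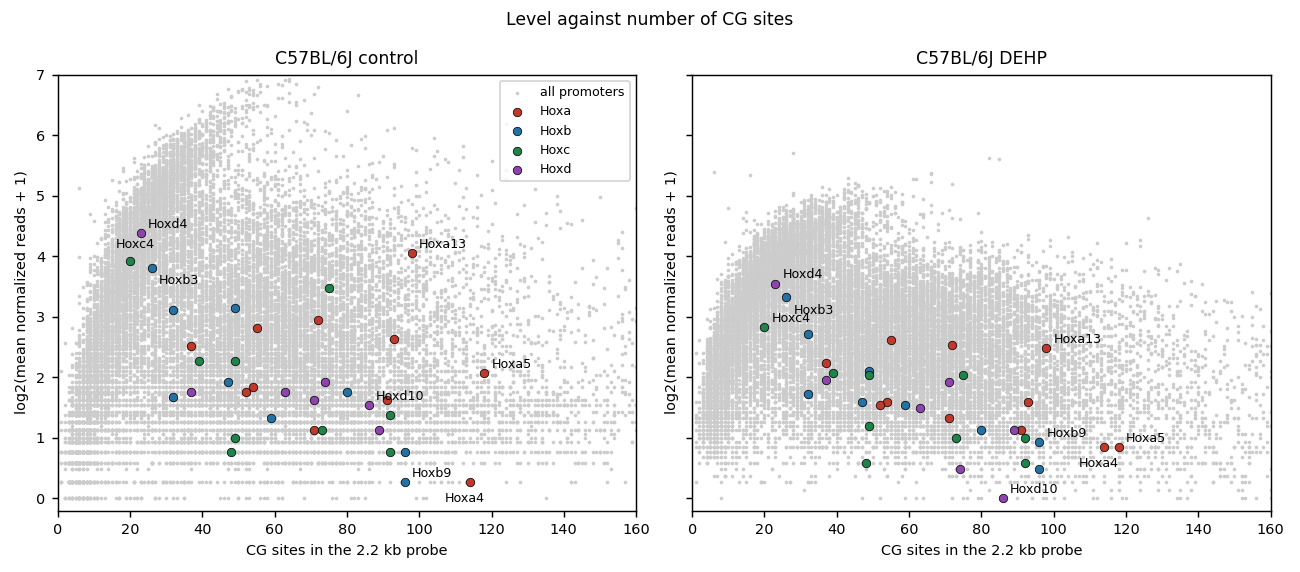
CG sites in the probe (x axis) against log2 of the authors' mean plus 1 (y axis) in both C57BL/6J groups, with the 22480 promoters in grey and Hox members coloured by cluster. A few promoters lie beyond the axes. Members with 80 sites or more lie mostly in the lower part of the grey cloud, and Hoxa13 lies well above them in controls.

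The comparison of DEHP with control asked whether prenatal exposure altered methylation in the sperm of the sons. In C57BL/6J, 2 Hox promoters were separated, Hoxc4 and Hoxd10, and both were lower after DEHP. These are 5.56% of the members, against 1.42% of all promoters separated in this direction. The authors kept a probe only when several libraries had reads over it, and Hoxd10, listed at 0 after DEHP, passed that filter through control libraries alone, so a share that includes it supports nothing about the members. Without Hoxd10, a choice made after its values were seen, 1 of 35 members was separated, or 2.86%. In the opposite direction 0 members were separated, against 0.249% of all promoters.

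Hoxc4, a gene of the neck and upper trunk, had 14.2 ± 2.4 normalized reads in C57BL/6J controls and 6.1 ± 1.9 in C57BL/6J DEHP, a log2 ratio of -1.10. The control libraries lay at 9.77 or above and the DEHP libraries at 9.64 or below, so the gap was narrow. When all groups were scaled to equal sums, the Hoxc4 ranges overlapped. In FVB/N the same promoter had 8.0 ± 2.3 and 8.3 ± 2.6, a log2 ratio of 0.05, and the DEHP libraries may lie from 3.51 to 13.1.

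Hoxd10 had 1.9 ± 0.6 in C57BL/6J controls and was listed at 0.0 ± 0.0 in C57BL/6J DEHP. Its control libraries lay at 0.687 or above, and the DEHP libraries at 0.139 or below. In FVB/N it had 1.3 ± 1.6 in controls and was again listed at 0.0 ± 0.0 after DEHP, but here the control libraries may also lie at 0. It was 1 of 34 promoters listed at 0 in C57BL/6J DEHP, 1 of 88 in FVB/N DEHP and 1 of 2 in both. No fold change is given against a value of 0.

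**Figure D4:**
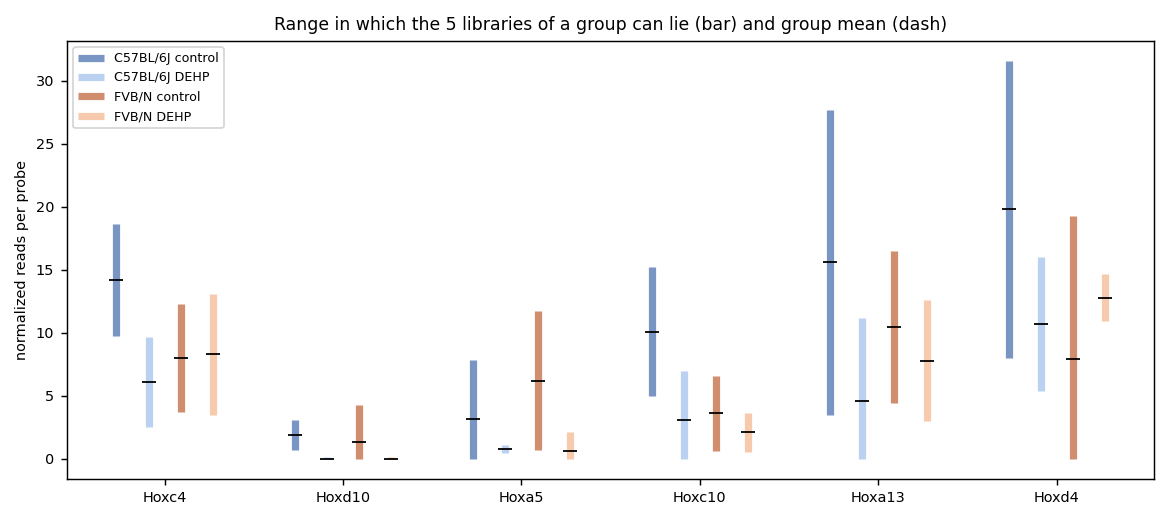
Range that the 5 libraries of each group cannot leave (bars, mean ± 1.79 SD widened for rounding and ended at 0) and the authors' mean (dashes), in normalized reads per probe, for 6 Hox promoters. In C57BL/6J the control and DEHP bars lie apart for Hoxc4 and Hoxd10 and overlap for Hoxa5, Hoxc10, Hoxa13 and Hoxd4.

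By size, 8 members (22.2%) were past a 2-fold difference in means (a log2 ratio with a pseudocount of 1 beyond 1) towards lower reads after DEHP in C57BL/6J, against 10.7% of all promoters. They were Hoxa5, Hoxa7, Hoxa13, Hoxb4, Hoxc4, Hoxc10, Hoxd10 and Hoxd12, so every cluster was among them. Towards higher reads 0 members were past 2-fold, against 5.09% of all promoters. The count was 7 of 35, or 20%, without Hoxd10. The count of 8 was 3 with equal sums, 4 with the trend on CG number removed and 5 among the 28 members with a mean of at least 1 in both groups. Shares of all promoters were not computed for these alternatives.

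The smallest ratios of C57BL/6J belonged to Hoxa13, Hoxc10 and Hoxd12 among the members not listed at 0. Hoxa13 went from 15.6 ± 6.7 to 4.6 ± 3.6, a log2 ratio of -1.57, and the ranges of 3.48 to 27.7 and 0 to 11.2 overlapped. Hoxc10 went from 10.1 ± 2.8 to 3.1 ± 2.1, a log2 ratio of -1.44, with libraries from 4.95 in controls and up to 7 after DEHP. Hoxd12, an autopod and genital gene, had 2.8 ± 2.2 and 0.4 ± 0.5, a log2 ratio of -1.44, again with overlapping ranges. At the other end, Hoxb9 (0.66), Hoxa4 (0.58) and Hoxd9 (0.29) had the largest log2 ratios, and none of their C57BL/6J means was above 2.8.

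Over the 36 members the median log2 ratio of DEHP over control in C57BL/6J was -0.28, against -0.10 over all promoters, but it was 0.08 with means scaled to equal sums, where that of all promoters was 0.33. It was negative for 27 members and positive for 8, Hoxd10 being counted as negative and Hoxd1 at 0. The ratio was below the median of all promoters for 27 of 36 members, and for 26 of 35 without Hoxd10. Promoters with at least 20 CG sites had a median of -0.23 in C57BL/6J, and the developmental factors listed above (89 promoters) had -0.36. A median below that of all promoters was thus not particular to Hox members. The clusters were close to each other, with medians of -0.28 (Hoxa), -0.34 (Hoxb), -0.19 (Hoxc) and -0.28 (Hoxd).

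In FVB/N, 0 Hox promoters were separated in either direction, against 0.859% of all promoters with DEHP lower and 0.774% with DEHP higher. Past 2-fold towards lower reads were Hoxa5 and Hoxd10, 5.56% of the members against 2.68% of all promoters, but without Hoxd10 this was 1 of 35, or 2.86%, near the share of all promoters. Hoxb6 was past 2-fold towards higher reads, 2.78% of the members against 14.4% of all promoters. With means scaled to equal medians the count towards lower reads was 11, with a pseudocount of 0.1 it was 7, and among the 20 members with a mean of at least 1 in both groups it was 0. For these alternatives the share of all promoters was not computed. With equal medians the median log2 ratio of all promoters itself moved from 0.35 to -0.18.

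Hoxa5 had 6.2 ± 3.0 normalized reads in FVB/N controls and 0.6 ± 0.8 after exposure, a log2 ratio of -2.17, the smallest of any member in either strain. Its control libraries may reach down to 0.694 and its DEHP libraries up to 2.17, so the ranges overlapped. In C57BL/6J it had 3.2 ± 2.5 and 0.8 ± 0.1, a log2 ratio of -1.22, where the control libraries may reach 0. Hoxa5 was thus lower after DEHP in the means of both strains, without separation in either.

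Hoxa2, which gives the second branchial arch its identity, had 4.0 ± 2.2 and 1.5 ± 1.4 in FVB/N, a log2 ratio of -1. The largest ratios of FVB/N were those of Hoxb6 at 1.28, Hoxc8 at 0.97 and Hoxb7 at 0.94. Hoxb6 had 0.9 ± 1.3 in controls and 3.6 ± 1.4 after DEHP, Hoxc8 had 1.1 ± 1.3 and 3.1 ± 1.6, and Hoxb7 had 0.2 ± 0.5 and 1.3 ± 1.3. These are differences of a few reads, and all 3 pairs of ranges overlapped. Hoxa3, needed for thymus and parathyroid, had 4.3 ± 2.1 and 8.9 ± 3.5, a log2 ratio of 0.90.

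The median log2 ratio of the members in FVB/N was -0.22, where that of all promoters was 0.35, and 30 of 36 members lay below the latter. Without Hoxd10 the median was -0.16, and 29 of 35 members lay below that of all promoters. Scaling to equal sums or to equal medians gave members' medians of -0.28 and -0.65, both negative. The ratio was negative for 22 members and positive for 14, whereas 6453 of the 22480 promoters had a negative one and 15533 a positive one. Among promoters with 80 to 118 CG sites it was negative for 11 of 12 Hox members and for 1133 of 3118 in all. In C57BL/6J the same band gave 9 of 12 and 1893 of 3118. These counts of negative Hox members all include Hoxd10, which passed the filter through control libraries alone. They were not recomputed without it, so they support nothing about the members. The medians of the clusters in FVB/N were -0.28 (Hoxa), -0.12 (Hoxb), -0.16 (Hoxc) and -0.28 (Hoxd). Promoters with at least 20 CG sites had a median of 0.25 in FVB/N, and the developmental factors (89 promoters) had 0.07.

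**Figure D5:**
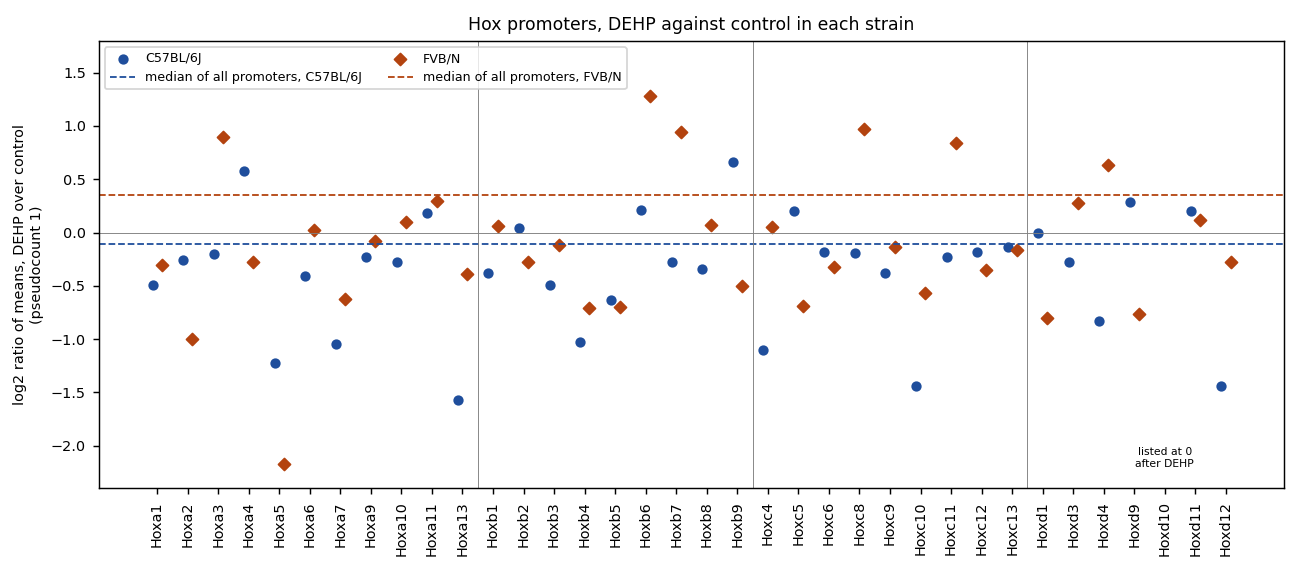
Log2 ratio of authors' means, DEHP over control with a pseudocount of 1, for each member in C57BL/6J (circles) and FVB/N (diamonds), ordered by cluster and paralog number. Dashed lines are the medians of all promoters (-0.10 and 0.35). Most diamonds lie below the upper dashed line, and Hoxd10, listed at 0 after DEHP in both strains, has no points.

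Set side by side, the ratio was negative in both strains for 16 members, Hoxd10 being counted among them, and positive in both for 3. It was negative in C57BL/6J and positive in FVB/N for 11, and the reverse for 5. For these mixed patterns the share of all promoters was not computed, so the counts support nothing particular to the members. Of all promoters, 23.1% were negative in both strains and 37.3% positive in both. Hoxd10 passed the filter through control libraries alone, and the count of 16 was not recomputed without it. That count therefore supports nothing about the members. The C57BL/6J and FVB/N ratios were -1.44 and -0.57 for Hoxc10, and -1.03 and -0.71 for Hoxb4. They were -0.83 and 0.63 for Hoxd4, with overlapping ranges in both strains. Whether the ratio of a member differed between the strains was not tested.

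The strains were sequenced together within each treatment. Between the control groups 0 members were separated, against 1.06% of all promoters with C57BL/6J higher and 0.0267% with C57BL/6J lower. Past 2-fold with C57BL/6J higher were 4 members, Hoxc8, Hoxc10, Hoxd4 and Hoxd12, which are 11.1%, against 16.4% of all promoters. With C57BL/6J lower there was 1, Hoxa4, 2.78% of the members against 0.556% of all promoters. With equal sums, equal medians or the trend on CG number removed, the count with C57BL/6J higher was 0, and that with C57BL/6J lower was 3, 5 and 4. The share of all promoters was not computed for these alternatives. Their median log2 ratio moved from 0.54 to 0.0 with equal sums and to -0.04 with equal medians. Hoxc10 had 10.1 ± 2.8 against 3.6 ± 1.6, a log2 ratio of C57BL/6J over FVB/N of 1.27, and Hoxd4 had 19.8 ± 6.5 against 7.9 ± 6.3, a log2 ratio of 1.22. The median of the members was 0.35, where all promoters had 0.54, and it turned to -0.12 with equal sums and to -0.17 with equal medians.

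Between the DEHP groups 0 members were separated, against 0.307% of all promoters with C57BL/6J higher and 0.0311% with C57BL/6J lower. No member was past 2-fold in either direction, against 2.69% and 0.298% of all promoters, but with a pseudocount of 0.1 there were 3 with C57BL/6J higher and 1 with C57BL/6J lower. With that pseudocount the shares of all promoters were not computed. The median log2 ratio of the members was 0.00 and that of all promoters 0.04. The largest ratio was that of Hoxb2 at 0.80, with 2.3 ± 1.4 against 0.9 ± 0.7 normalized reads, and the smallest was that of Hoxb7 at -0.72.

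Variants between the strains lay in the probes of 13 members (36.1%), compared with 46.1% of all promoters. Hoxc12 had 8, the most of any member. Members with a variant had a median log2 ratio of C57BL/6J over FVB/N of -0.23 in controls and 0.07 after DEHP, and the 23 without one had 0.39 and 0.00. Functional variants in the gene itself were listed for 4 members, Hoxa3, Hoxa4, Hoxd3 and Hoxd4.

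The spread between libraries was wide for such low values. Among members with a mean of at least 1, the median SD was 0.583 of the mean in control C57BL/6J (31 members), 0.677 after DEHP (28), 0.63 in control FVB/N (29) and 0.458 after DEHP (24). Over all promoters it was 0.463, 0.421, 0.735 and 0.389.

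The deposited table pairs each gene with expression values of testis cells of C57BL/6J males from an independent dataset, on a scale that is not stated. Spermatogonia and Sertoli cells came from juvenile males, and the other samples came from adult males. Age and cell type therefore cannot be told apart between those cells and the rest. Values were present for 32 of the 36 members. Their medians were 4.14 in spermatogonia, 4.34 in Sertoli cells, 4.02 in seminiferous tubules, 4.52 in spermatids, 4.25 in spermatocytes and 4.21 in total testis, where all genes of the table had medians of 5.67 to 5.82. Only 4 members, or 5 in Sertoli cells, were above the median of all genes. Hoxd9 was the highest at 10.2 in spermatogonia and 8.17 in Sertoli cells, and was at 5.95 in spermatocytes. Hoxa4, a gene known for its transcript in male germ cells, was at 3.13 in spermatogonia and 3.27 in Sertoli cells but at 6.97 in spermatocytes and 6.51 in spermatids. Hoxd10 was at 6.08 in spermatogonia and 6.05 in Sertoli cells, and at 3.5 to 3.83 in the other samples. In spermatids the members with the highest MBD-seq level were below the median of all genes, 5.68. Hoxd4 was at 4.41, Hoxb3 at 4.98, Hoxa13 at 4.89 and Hoxc4 at 5.07. Hoxb9, the member with the lowest MBD-seq level, was at 4.84. All of these but Hoxd4 were above the median of the members, 4.52. There was 1 value for each cell type, without error.

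Genes that neighbour, regulate or work with Hox genes were described from fixed lists. Of 6 microRNAs inside the clusters, 4 were in the table. Of these, 0 were separated between DEHP and control, against at most 1.42% of all promoters in any direction or strain. For so few promoters such a count says nothing. The promoter of Mir196a-1, in the Hoxb cluster, had 12.8 ± 4.1 in C57BL/6J controls and 4.6 ± 2.0 after DEHP, and 9.3 ± 5.1 and 8.1 ± 0.8 in FVB/N. Mir10a, whose probe overlaps that of Hoxb4, had 8.5 ± 2.3 and 4.4 ± 3.1 in C57BL/6J, next to 7.8 ± 2.5 and 3.3 ± 2.0 for Hoxb4. Evx1 and Evx2, even-skipped genes at the posterior ends of the Hoxa and Hoxd clusters, were low like the Hox genes, with means of 0.3 to 4.8.

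Of the ParaHox and Cdx genes, relatives of Hox genes that in part regulate them, 5 of 6 were found and 0 were separated between DEHP and control. Cdx1 was the highest with 18.4 ± 5.7, 13.1 ± 5.4, 13.5 ± 4.8 and 10.3 ± 6.6. All 13 Polycomb genes, whose products keep Hox genes silent, were found, with medians of 2.3, 1.9, 1.4 and 1.8 and a median of 107 CG sites. Trithorax genes and demethylases (6 of 7 found), which counter Polycomb, had medians of 8.55, 5.45, 4.45 and 6.65. The retinoic acid list (6 of 6 found), receptors and enzymes of a signal that switches on Hox genes, had 2.85, 2.6, 1.75 and 4. The TALE cofactors, which bind DNA together with Hox proteins (7 of 9 found), had 6.9, 6.2, 2.4 and 4. In these 4 lists 0 promoters were separated between DEHP and control in either strain. Pbx4, a TALE cofactor, was separated between the strains after DEHP, with 3.6 ± 0.9 in C57BL/6J and 0.6 ± 0.5 in FVB/N.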

How the data were processed

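Sperm DNA of 20 males in 4 groups was measured by MBD-seq. Read-pairs were aligned onto mm10 with Bowtie 0.12.7, filtered, counted over promoter probes and normalized with edgeR by the authors, and a probe was kept when it held a CpG and reads in several samples. The signal used here is what the authors deposited, namely a mean and an SD over the 5 libraries of each group, in normalized reads and with 1 decimal. Numbers of CG sites and of strain variants are the authors' annotations, and the expression values are a score the authors took from an independent dataset. Columns with the authors' own log2 fold changes, p-values and FDR were not used.

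Since no values of single libraries were used, the test planned for counts gave way to a description of group means without a test. Depth of single libraries is not known here, and error is given by the deposited SD alone. By the study's methods, DEHP libraries had on average more read-pairs than control libraries, and slightly longer reads. Computed were log2 ratios of means with a pseudocount of 1, separation by mean ± 1.79 SD widened by 0.05, and rank correlations. Sequence, CG positions and island-like windows came from GRCm38.p6, in which 93.2% of all probes and 32 of 36 Hox probes had the deposited CG number, and exons from its GENCODE annotation.

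Members and gene lists were chosen with earlier results of these data known. Named members are the highest and lowest of each cluster, the 3 largest and 3 smallest ratios per strain, all separated ones, those listed at 0 and those with most or fewest CG sites. Others named were chosen after their values were seen. Alternatives were a pseudocount of 0.1, a mean of at least 1 in both groups, means scaled to equal sums or equal medians, a lowess trend on CG number (fraction 0.3) removed, 1 member per run of overlapping probes, reads per 10 CG sites, a separation by 1 SD and, added after the values were seen, counts without Hoxd10. The tools were matplotlib 3.10.9, statsmodels 0.14.6, pandas 2.3.3, numpy 2.4.6 and scipy 1.17.1 under Python 3.11.15. The sequence planned for the lowest member is not reported here.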

Additional observations from a re-analysis of the deposited data

How the results depend on the processing

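The median log2 ratio of the Hox members was sensitive to the scaling of the groups. For DEHP over control in C57BL/6J it was -0.28 as deposited and 0.08 with equal sums, and for C57BL/6J over FVB/N in controls it was 0.35 as deposited, -0.12 with equal sums, -0.17 with equal medians and -0.13 with the trend on CG number removed. Taken less the median of all promoters, the ratio of DEHP over control was negative under all alternatives, from -0.08 to -0.29 in C57BL/6J and from -0.36 to -0.83 in FVB/N. The same difference for C57BL/6J over FVB/N after DEHP was -0.04 as deposited and 0.01 with equal medians. The medians of all promoters were -0.10, 0.33 and -0.16 in C57BL/6J as deposited, with equal sums and with equal medians, and 0.35, 0.29 and -0.18 in FVB/N.

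Promoters with DEHP lower in C57BL/6J were 2 by the range, 4 when a gap of 1 SD was enough (Hoxa13 and Hoxc10 added), 1 with equal sums (Hoxd10) and 1 without Hoxd10 (Hoxc4). The 4, Hoxd10 among them, are 11.1% of the members, against 11.2% of all promoters by the same gap. With equal sums all promoters gave 0.129%, but the only member was Hoxd10, which passed the filter through control libraries alone. A share that includes Hoxd10 supports nothing about the members. A gap of 1 SD gave 1 promoter with DEHP lower in FVB/N (Hoxa5), against 3.4% of all promoters, and 3 with C57BL/6J higher in controls (Hoxb1, Hoxc4 and Hoxc10), against 8.81% of all promoters. With a mean of at least 1 in both groups, 16 of 20 members were below the median of all promoters in FVB/N and 13 of 22 for C57BL/6J over FVB/N after DEHP, because fewer members entered. Taking 1 member per run of overlapping probes kept all 36. The ratio of the Hox median to that of all promoters was 0.48, 0.368, 0.8 and 0.286 in the 4 groups, and 0.305, 0.262, 0.483 and 0.228 per 10 CG sites. Apart from the stated cases the cause was not tested.

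No paired analysis was possible because the values used are group means and SDs without single libraries, and no library was left out for the same reason. DESeq2 and filters on counts were not run either. A lack of separation does not show that groups did not differ, and for depth the study states only averages by treatment.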
